A study of Mus musculus with 2 samples.

Results

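The genes described here are the interferon response and interferon receptor genes of mouse hematopoietic stem cells. They were compared between cells negative and positive for a reporter of Satb1, which encodes the chromatin organizer SATB1. Members were chosen by symbol from a list of 54 genes, and 53 of them had a row among the 23210 genes used from the files; Ifi27 had none. The cells were labelled as hematopoietic stem cells and were sorted as lineage-negative, Sca-1-positive, Kit-positive (LSK) cells that were CD150-positive and Flt3-negative, from animals with a Tomato reporter of Satb1 in both groups. There were 2 groups with 1 library each, Satb1-Tomato-negative and Satb1-Tomato-positive cells, which are called the SATB1-negative and SATB1-positive library below. Strain, age and the number of animals behind a library are not stated in the labels. With 1 library per group no difference has a replicate check, and no p-value was computed.

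Interferons are secreted proteins that warn cells of infection. Type I interferons bind the receptor made of IFNAR1 and IFNAR2, and interferon-gamma, the type II interferon, binds the receptor made of IFNGR1 and IFNGR2. Both receptors act through Janus kinases and STAT proteins, which enter the nucleus and switch on interferon-stimulated genes. The products of these genes sense foreign nucleic acid, block viral entry and replication, or attack intracellular parasites. Stem cells are known to express a set of interferon-stimulated genes without infection, and type I interferon and interferon-gamma are both known to drive hematopoietic stem cells into division.

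Most interferon response genes were slightly lower in the SATB1-positive library, and none differed by 2-fold. Levels are given in FPKM, fragments per kilobase of transcript, scaled to the number of mapped fragments, and the log2 ratio is log2((SATB1-positive FPKM + 1)/(SATB1-negative FPKM + 1)), which understates the difference of genes near 1 FPKM. Of the 53 members, 41 had a log2 ratio below 0 and 12 above, against 51.0% of the 11873 measured genes (1 FPKM or more in either library) that were below 0. The median log2 ratio of the members was -0.25, and that of all these genes was -0.01. The 2-fold rule asked for a log2 ratio of at least 1 or at most -1 and at least 5 FPKM in the higher library. It was met by 0 members in either direction, where 1.03% of all measured genes met it as higher and 0.539% as lower. Log2 ratios lay between -0.77 and 0.63. With 1.5-fold in this rule, 2 members were past the threshold as lower (Iigp1 and Ifitm3) and 1 as higher (Zbp1), against 2.27% and 2.98% of measured genes. By the plain ratio of FPKM, without the added 1 and the minimum, Mx2, Oas1g, Xaf1, Rsad2 and Parp12 were also over 1.5-fold lower.

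Every member reached 1 FPKM in both libraries, so no member entered or left through a filter on low values, and 49 had a mean of at least 5 FPKM. Levels ran from 1.58 FPKM (Mx1) to 539 FPKM (Ifitm2) in the SATB1-negative library, with a median of 21.3 FPKM. In the SATB1-positive library they ran from 1.47 FPKM (Mx2) to 463 FPKM (Ifitm2), with a median of 17.5 FPKM. Ifitm1, Ifitm2 and Ifitm3 together held 45.7% of the members' summed FPKM in the SATB1-negative library. That sum was 2458 FPKM in negative and 2080 FPKM in positive cells, and without these 3 genes it was 1335 and 1205 FPKM. A lower level in a library of sorted cells can come from fewer cells of a type or from less RNA per cell, and these cannot be told apart here.

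**Figure D1:**
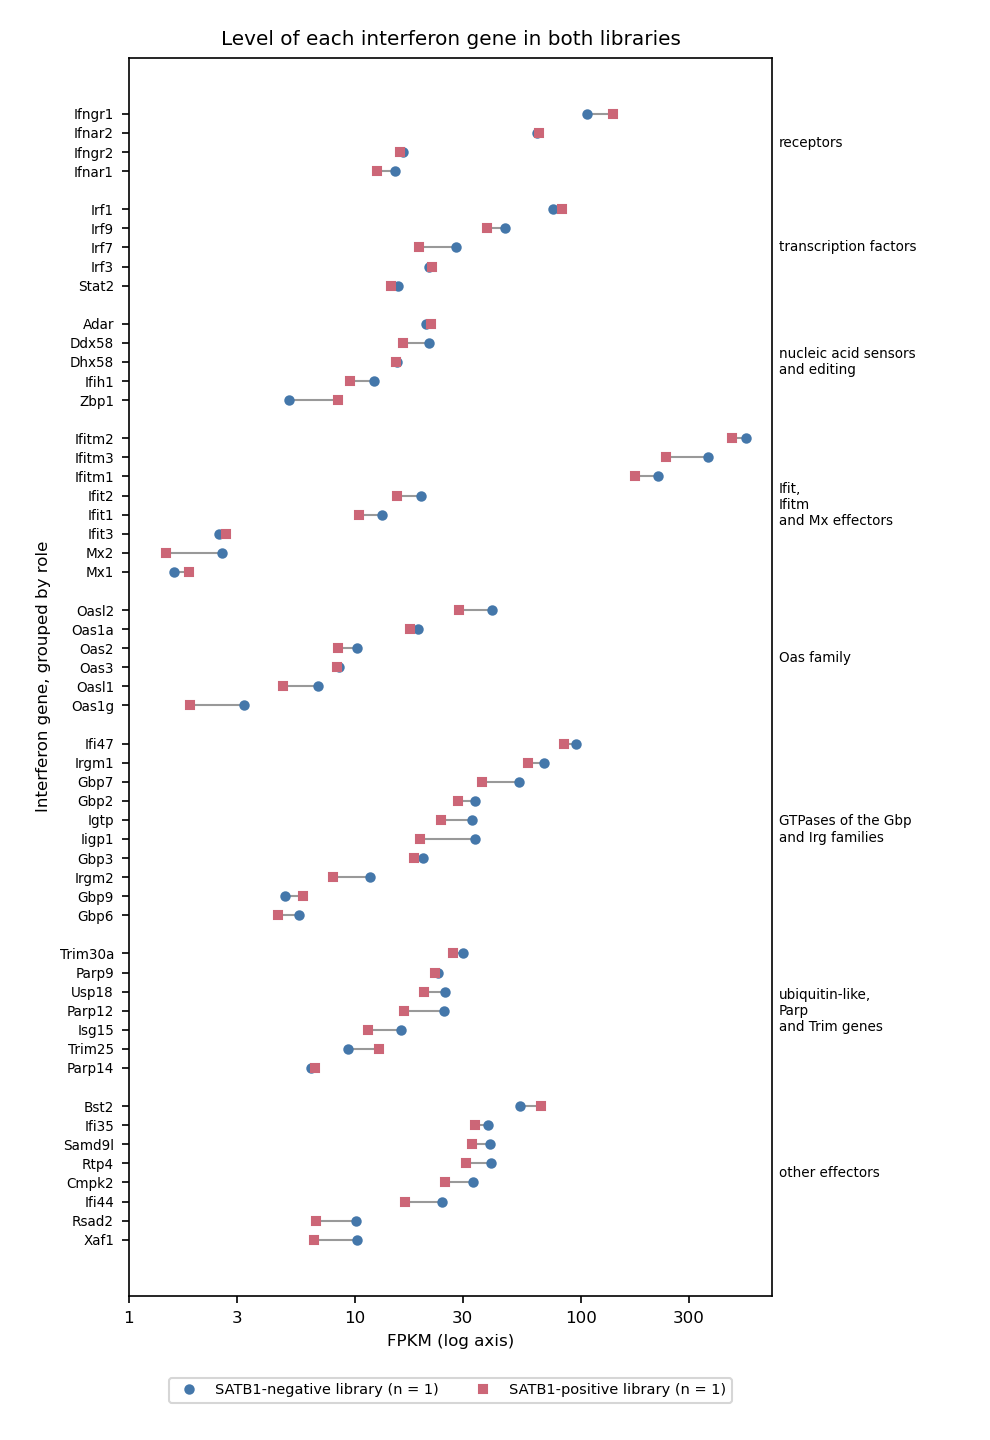
FPKM (log axis) of each of the 53 interferon genes, grouped by role; circles are the SATB1-negative and squares the SATB1-positive library, each with 1 library. In most rows the square lies to the left of the circle (41 of 53), and Ifitm1, Ifitm2 and Ifitm3 stand apart at the right.

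Depth allows small differences to be seen for most members, but only as differences between these libraries. Depth was estimated from the values themselves at 34920000 fragments in negative and 26680000 in positive cells, and from 79 to 10031 fragments lay behind a member's value. Folds below are plain ratios of FPKM, each with an exact (Clopper-Pearson) 95% interval in brackets that covers counting error only, not the spread between animals or sorts; PCR copies count as separate fragments, so it can be too narrow. This interval lay wholly on the lower side in 36 members and wholly on the higher side in 6, and it included 1 in 11. Among the 10614 measured genes with an interval, 31.6% lay on the lower and 31.7% on the higher side. An interval on one side of 1 was thus common among all genes, and the members' split between the sides was the uneven part.

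**Figure D2:**
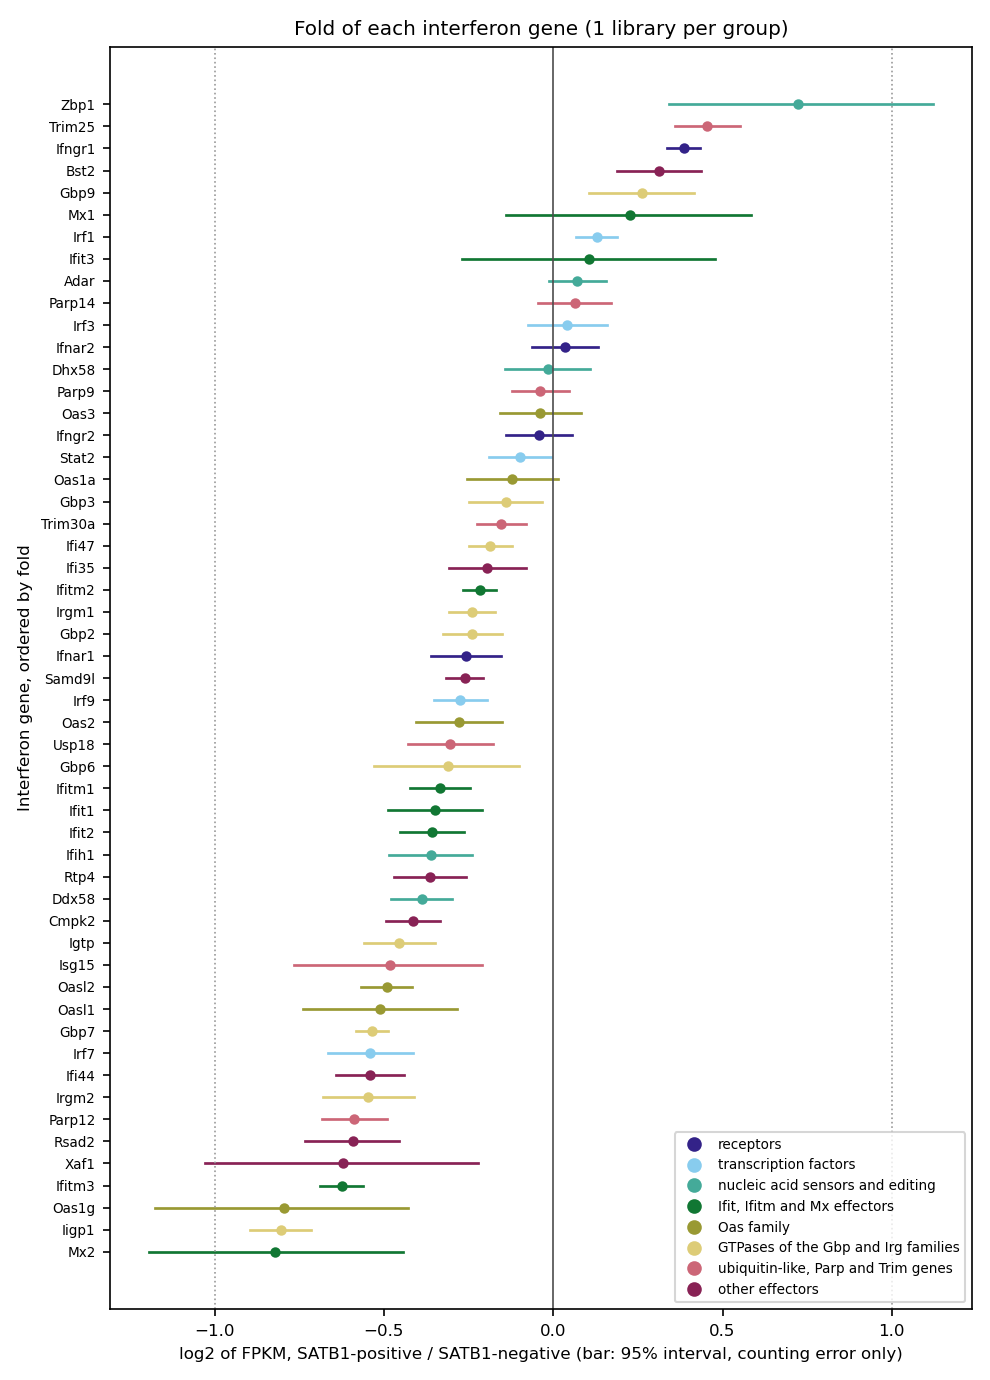
log2 of the plain FPKM fold (SATB1-positive over SATB1-negative) of each interferon gene, with its 95% interval for counting error, coloured by role; dotted lines mark 2-fold. Points run from Mx2 at the lowest fold to Zbp1 at the highest, and no point passes a dotted line, though the bars of Zbp1, Mx2, Oas1g and Xaf1 do.

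Of the 4 receptor genes, 2 had a log2 ratio below 0 and 2 above. Ifngr1, the ligand-binding chain of the interferon-gamma receptor, was at 106 FPKM in negative and 138 FPKM in positive cells, 1.31-fold higher (1.26 to 1.35). Its partner chain Ifngr2 was at 16.3 and 15.8 FPKM, an interval that included 1. Ifnar1, one chain of the type I receptor, was at 14.98 and 12.5 FPKM, 1.20-fold lower (1.11 to 1.29), while Ifnar2, the other chain, was at 63.7 and 65.2 FPKM. So 1 of 4 receptor genes was higher and 1 lower beyond counting error, and the median log2 ratio of the 4 was -0.0026. The other receptor genes are neighbours on chromosome 16 of mm10, Ifnar2 at 91372783 to 91405589, Ifnar1 at 91485238 to 91507441 and Ifngr2 at 91547072 to 91565623. Ifngr1 lies on chromosome 10. In each library the gamma receptor had one abundant and one scarce chain, as did the type I receptor.

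Among the transcription factors of the pathway, Irf7 stood lowest in ratio. Irf7, which amplifies type I interferon production, was at 28.0 FPKM in negative and 19.3 FPKM in positive cells, 1.45-fold lower (1.33 to 1.59). Irf9 was at 46.3 and 38.3 FPKM, 1.21-fold lower (1.15 to 1.28), and Stat2 at 15.5 and 14.5 FPKM, 1.07-fold lower (1.004 to 1.14). IRF9 and STAT2 are subunits of the ISGF3 complex of the type I response. Irf3, which is activated by phosphorylation after viral sensing, was at 21.3 and 21.9 FPKM. Irf1, a factor induced strongly by interferon-gamma, was on the other side, at 75.3 and 82.3 FPKM, 1.09-fold higher (1.05 to 1.14). The 5 factors had a median log2 ratio of -0.09, with 3 below 0.

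Sensors of nucleic acid were divided. Ddx58, which encodes the RNA helicase RIG-I, was at 21.3 FPKM in negative and 16.3 FPKM in positive cells, 1.31-fold lower (1.23 to 1.39). Ifih1, which encodes the related helicase MDA5, was at 12.2 and 9.48 FPKM, 1.28-fold lower (1.18 to 1.40). The third helicase of this family, Dhx58 (LGP2), was nearly level at 15.4 and 15.2 FPKM, and the RNA-editing enzyme gene Adar was at 20.7 and 21.7 FPKM. Exons of Adar overlap those of Chrnb2 on the other strand over 16.8% of their length, so its value carries that uncertainty. Zbp1, a sensor of Z-form nucleic acid that can start necroptosis, had the highest log2 ratio of all members, at 5.12 and 8.46 FPKM. Its fold was 1.65 (1.27 to 2.17), on about 101 and 128 fragments, and its log2 ratio of 0.63 was above that of 96.3% of measured genes.

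The Ifitm genes, whose products sit in membranes and hinder viral entry, were the most abundant members. Ifitm3 was at 366 FPKM in negative and 237 FPKM in positive cells, 1.54-fold lower (1.47 to 1.61), with a log2 ratio of -0.62. Ifitm1 was at 219 and 174 FPKM, 1.26-fold lower (1.19 to 1.34), and Ifitm2 at 539 and 463 FPKM, 1.16-fold lower (1.12 to 1.20). These genes lie within one stretch of chromosome 7, between 140954837 and 141010770. Summed over the 3 genes the level was 1124 and 874 FPKM. This sum is less exposed to how fragments were divided among these 3 genes, but not to a division with other gene models. Of the 50-base words of Ifitm2 transcripts, 48.5% also occur in transcripts of other genes, led by the overlapping Gm45717 (36.1%). For Ifitm3 the share was 10.02%, led by Gm7676 (4.61%). Neither of these leading genes is in the sum.

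Ifit proteins bind foreign RNA and Mx proteins are GTPases that trap viral particles. Ifit1 was at 13.2 FPKM in negative and 10.4 FPKM in positive cells, 1.27-fold lower (1.16 to 1.40), and Ifit2 at 19.6 and 15.3 FPKM, 1.28-fold lower (1.20 to 1.37). Ifit3, which shares 51.2% of its 50-base words with the near copy Ifit3b, was at 2.50 and 2.69 FPKM with an interval of 0.830 to 1.39, so its value is uncertain. Mx2 was at 2.59 and 1.47 FPKM, 1.77-fold lower (1.36 to 2.29), and Mx1 at 1.58 and 1.85 FPKM with an interval that included 1. Both Mx genes were among the 4 least abundant members, and their sum was 4.18 and 3.32 FPKM.

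All 6 genes of the Oas family, whose products make the antiviral 2′-5′-oligoadenylate signal or are relatives of those enzymes, had a log2 ratio below 0. Their median was -0.34. Oasl2 was the most abundant, at 40.5 FPKM in negative and 28.8 FPKM in positive cells, 1.41-fold lower (1.34 to 1.48). Oasl1, which represses translation of Irf7 mRNA, was at 6.89 and 4.83 FPKM, 1.43-fold lower (1.22 to 1.67), and Oas2 at 10.2 and 8.44 FPKM, 1.21-fold lower (1.11 to 1.32). Oas3 was level at 8.53 and 8.31 FPKM. Oas1a was at 19.1 and 17.5 FPKM with an interval that included 1, and Oas1g at 3.23 and 1.86 FPKM, 1.74-fold lower (1.34 to 2.26). Oas1a shares 57.6% of its 50-base words with Oas1g, so the split between these neighbours is uncertain; their sum was 22.3 and 19.4 FPKM, 1.15-fold lower.

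The guanylate-binding proteins (Gbp) and immunity-related GTPases (Irg) attack the vacuoles of intracellular parasites and are classical targets of interferon-gamma. Of these 10 genes, 9 had a log2 ratio below 0, and in all 9 the interval lay on the lower side. Iigp1 was at 34.0 FPKM in negative and 19.4 FPKM in positive cells, 1.75-fold lower (1.64 to 1.86). Its log2 ratio of -0.77 was the lowest of all members and was undercut by 1.69% of measured genes. Gbp7 was at 53.1 and 36.6 FPKM, 1.449-fold lower (1.402 to 1.499), the member with the most fragments.

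The Irg regulators showed the same direction at differing sizes. Irgm2 was at 11.6 and 7.97 FPKM, 1.46-fold lower (1.33 to 1.60), and Igtp, the third of the Irgm proteins, at 32.9 and 24.0 FPKM, 1.37-fold lower (1.27 to 1.47). Irgm1, whose loss is known to deplete hematopoietic stem cells, was at 68.9 and 58.4 FPKM, 1.18-fold lower (1.13 to 1.24). Ifi47, an Irg gene also on chromosome 11, was the most abundant of this group at 95.2 and 83.6 FPKM, 1.14-fold lower (1.09 to 1.19). Igtp and Irgm2 overlap at their start and share 12.3% of the words of Igtp; their sum was 44.5 and 32.0 FPKM.

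The remaining Gbp members lie on chromosome 3 (Gbp2 and Gbp3) and chromosome 5 (Gbp6 and Gbp9). Gbp2 was at 33.9 and 28.7 FPKM, 1.18-fold lower (1.11 to 1.25), and Gbp3 at 20.1 and 18.2 FPKM, 1.10-fold lower (1.02 to 1.19). Gbp6 was at 5.67 and 4.57 FPKM, but 90.2% of its words occur in other gene models, mostly the overlapping Gm43302. Gbp9 alone of this group was higher, at 4.91 and 5.88 FPKM, 1.20-fold (1.08 to 1.33).

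Isg15, a ubiquitin-like modifier that is attached to other proteins, was at 16.0 FPKM in negative and 11.5 FPKM in positive cells, 1.40-fold lower (1.16 to 1.70). Usp18, which removes ISG15 and blocks signalling at IFNAR2, was at 25.1 and 20.3 FPKM, 1.23-fold lower (1.13 to 1.35).

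The Parp and Trim members were mixed. Parp12, an ADP-ribosyltransferase with zinc fingers, was at 24.7 FPKM in negative and 16.5 FPKM in positive cells, 1.503-fold lower (1.41 to 1.61). Parp9 was at 23.2 and 22.6 FPKM and Parp14 at 6.37 and 6.65 FPKM, both with intervals that included 1. Trim30a was at 30.2 and 27.1 FPKM, 1.11-fold lower (1.06 to 1.17). Trim25, a ligase that acts on RIG-I and can attach ISG15, was higher, at 9.30 and 12.7 FPKM, 1.37-fold (1.28 to 1.46). RIG-I itself (Ddx58) had its higher value in the other library.

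Of the 8 other effectors 7 had a log2 ratio below 0, with the lowest median of the 8 role groups, -0.38. Rsad2, which encodes viperin and makes a chain-terminating nucleotide, was at 10.1 FPKM in negative and 6.73 FPKM in positive cells, 1.51-fold lower (1.37 to 1.66). Its neighbour on chromosome 12, Cmpk2, a nucleotide kinase that feeds this reaction, was at 33.2 and 24.9 FPKM, 1.33-fold lower (1.26 to 1.41). Xaf1, a promoter of apoptosis, was at 10.2 and 6.63 FPKM, 1.54-fold lower (1.17 to 2.04), and Ifi44 at 24.2 and 16.6 FPKM, 1.45-fold lower (1.36 to 1.56). Smaller differences in the same direction were seen for Rtp4 at 40.0 and 31.1 FPKM, Samd9l at 39.6 and 33.0 FPKM and Ifi35 at 38.8 and 33.9 FPKM. Exons of Ifi35 overlap those of Gm11626 on the other strand over 16.8% of their length. Exons of Rtp4 overlap those of Gm45338 on the same strand over 13.9%, so both values carry that uncertainty. Bst2, the tetherin that holds budding virus at the cell surface, was the exception, at 53.7 and 66.8 FPKM, 1.24-fold higher (1.14 to 1.35).

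**Figure D3:**
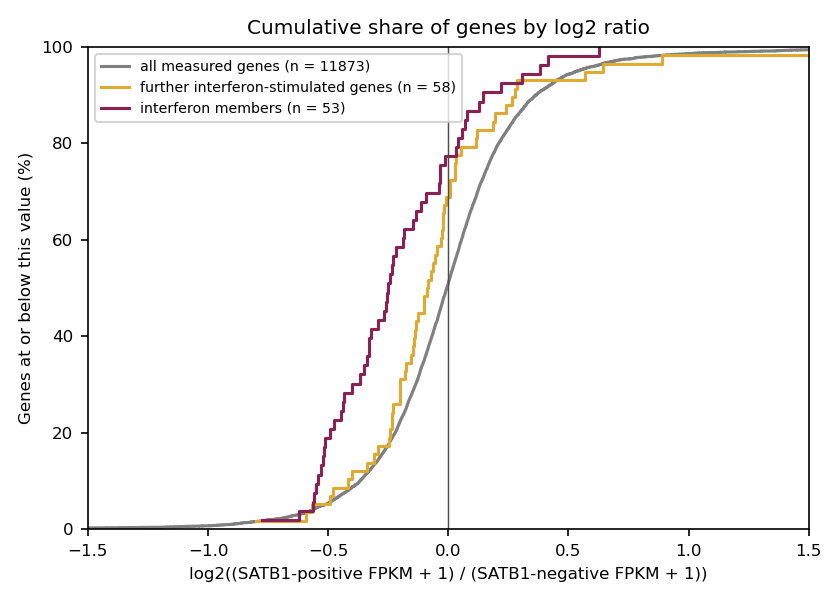
Cumulative share of genes (%) by log2 ratio for the 53 members, for 58 further interferon-stimulated genes and for all 11873 measured genes. The members' curve lies to the left of the curve of all genes over most of the range, with 77.4% of members below 0. The curve of the further genes lies between these at 0, with 69.0% below 0, but not at the ends.

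Markers of other cell types differed between these libraries too, and their part in the result was not tested. Satb1 itself, the gene behind the reporter, was at 2.37 FPKM in negative and 8.26 FPKM in positive cells, the order that the labels give. All 10 markers of T and NK cells had a log2 ratio above 0, and their summed level was 11.5 FPKM in negative and 62.1 FPKM in positive cells. The 6 mast cell and basophil markers summed to 308 and 694 FPKM with 5 above 0. The 5 monocyte and macrophage markers in the files summed to 192 and 336 FPKM, with all 4 measured ones above 0. The 6 neutrophil markers summed to 651 and 539 FPKM, with 5 below 0 and a median log2 ratio of -0.35. The 8 markers of hematopoietic stem cells summed to 624 and 520 FPKM, with 7 below 0 and a median of -0.43. Both medians lay below the interferon members' median of -0.25. Of the markers of plasmacytoid dendritic cells, the specialised producers of type I interferon, 3 of 4 measured had a log2 ratio above 0, and the 6 in the files summed to 79.9 and 92.1 FPKM. Ccr9 was at 0.272 and 1.94 FPKM and Siglech at 0.223 and 0.171 FPKM. Bst2 is on that list as well as a member and makes up most of its sum. B cell markers other than Cd79b were below 1 FPKM in both, and Pax5 was listed at 0 in the SATB1-positive library. Of 4 measured erythroid markers, 2 had a log2 ratio below 0 and 2 above, among them Hbb-b1 at 1.15 FPKM in negative and 7.01 FPKM in positive cells.

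Interferon-gamma itself was the 1 ligand gene measured. Ifng was at 0.975 FPKM in negative and 5.19 FPKM in positive cells, 5.32-fold higher (3.66 to 8.03) on about 34 and 139 fragments. T and NK cells are its known sources. Ifng passed the 2-fold rule of size with a log2 ratio of 1.65, but not with a pseudocount of 5, where the ratio was 0.77. The other 11 ligand genes in the files, 8 of them of the interferon-alpha family, were below 1 FPKM in both libraries. Ifng was higher, and 9 of the 10 Gbp and Irg members lower, in the same library. Among the 58 further interferon-stimulated genes described below, 40 had a log2 ratio below 0. Others on that list were higher, as Cxcl10 at 4.17 and 6.68 FPKM and Gbp5 at 1.22 and 1.66 FPKM. A link between the ligand and these genes was not tested.

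The list of kinases and STAT proteins between receptor and nucleus also held Il10rb, a receptor chain of interleukin-10 and interferon-lambda. Of its 9 genes in the files, 3 had a log2 ratio below 0 and 0 passed the 2-fold rule, with a median of 0.04. Tyk2, the kinase bound to IFNAR1, was at 13.4 and 17.2 FPKM, 1.28-fold higher (1.20 to 1.36), and Stat5a at 41.5 and 49.99 FPKM. Stat3, which mainly serves cytokines of the interleukin-6 family, was at 73.6 and 65.6 FPKM. Jak1, which serves both receptors and was the most abundant, was at 119 and 115 FPKM.

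Of 12 genes that restrain the pathway, 8 had a log2 ratio below 0, with a median of -0.06, and 1 passed the 2-fold rule, as higher. This was Irf2bp2, a corepressor partner of IRF2, at 25.5 and 57.8 FPKM, 2.27-fold higher (2.18 to 2.35). Pias4, an inhibitor of STAT signalling, was at 13.7 and 17.4 FPKM. Socs1, the feedback inhibitor of the gamma receptor, was at 15.8 and 11.4 FPKM, 1.38-fold lower (1.26 to 1.51). Irf2, which represses interferon targets and is required for hematopoietic stem cell quiescence, was at 67.0 and 50.02 FPKM, 1.34-fold lower (1.28 to 1.40). The phosphatase gene Ptpn6 was the most abundant at 118 and 108 FPKM.

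Of the 4 measured interferon regulatory factors outside the members, 2 had a log2 ratio below 0 and 2 above. Irf8, a factor of monocyte and dendritic cell fate, was at 12.5 FPKM in negative and 24.1 FPKM in positive cells, 1.92-fold higher (1.76 to 2.09), and Irf5 was at 10.9 and 12.7 FPKM. Irf2, named above, is on this list too as its most abundant gene. None of the 4 passed the 2-fold rule.

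Adaptors and kinases of the sensors were near level as a group. Of 17 measured genes 9 had a log2 ratio below 0, with a median of -0.0028, and 0 passed the 2-fold rule. Eif2ak2, the RNA-activated kinase PKR, was at 12.4 and 10.9 FPKM. On the other side were Ticam2 at 5.71 and 7.98 FPKM and Traf3 at 8.03 and 9.83 FPKM, both signalling adaptors. Irak1 was the most abundant, at 75.5 and 71.4 FPKM.

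Further interferon-stimulated genes that are no members leaned the same way by less. Of 58 measured, 40 had a log2 ratio below 0, with a median of -0.09, 1 passed the 2-fold rule as higher and 0 as lower. The GTPase gene Tgtp1 was at 6.32 and 3.20 FPKM, 1.98-fold lower (1.69 to 2.32), but its near copy Tgtp2 makes the split of its reads uncertain. Ifitm6 was at 18.1 and 11.7 FPKM, 1.55-fold lower (1.27 to 1.91). The gene past the rule was Ccl5, a chemokine that T and NK cells make, at 8.88 and 36.7 FPKM, 4.13-fold higher (3.31 to 5.24). Pyhin1 was at 4.38 and 8.98 FPKM, and Lgals9, the most abundant, at 295 and 301 FPKM.

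**Figure D4:**
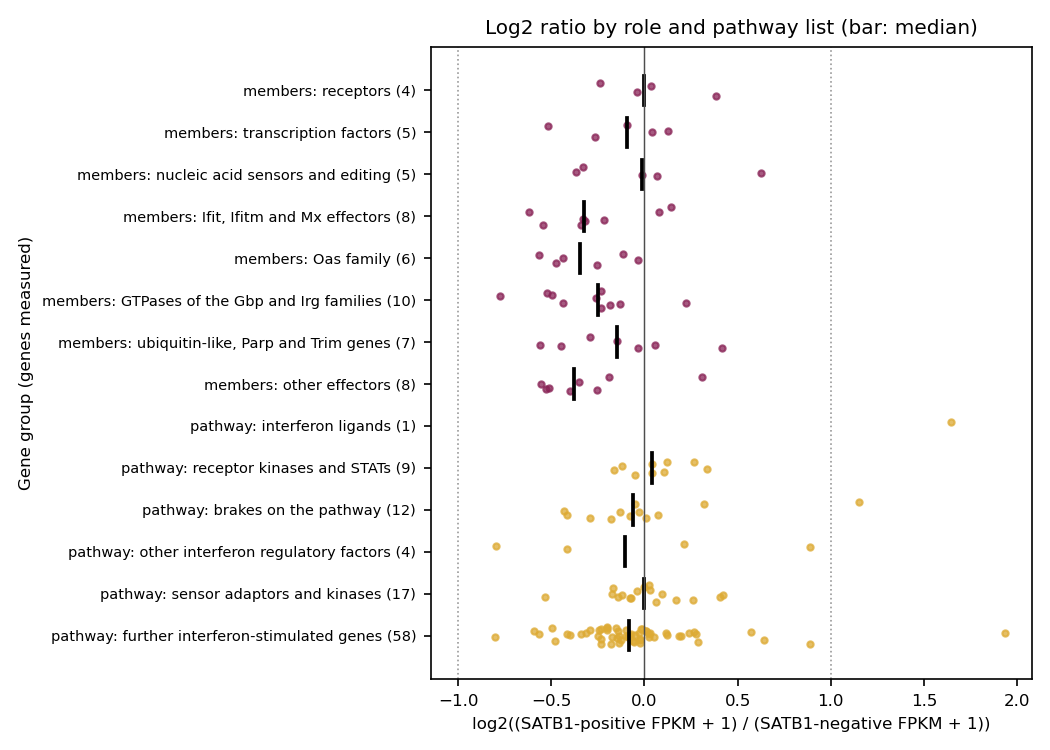
log2 ratio of each measured gene by role (members, upper 8 rows) and by pathway list (lower 6 rows), with the number of genes in brackets, the median as a bar and 2-fold as dotted lines. Effector groups centre below 0, with medians from -0.15 to -0.38, while receptors, sensors and signalling genes centre near 0.

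Promoter sequences of the members were examined as a further description of them. The interferon-stimulated response element, bound by ISGF3 and interferon regulatory factors, was searched as GAAA NN GAAA on both strands in RefSeq promoter windows (GRCm38.p6, the mm10 assembly) from 250 bases before to 50 after the start. The gamma-activated site, bound by STAT dimers, was searched as TTCNNNGAA, which reads the same on both strands. A window was found for 41 of the 53 members. The 12 without one were Dhx58, Zbp1, Mx1, Mx2, Oas2, Gbp6, Gbp9, Iigp1, Usp18, Parp9, Parp14 and Rtp4. Of the 41 genes 20 held a match to the response element (48.8%), against 3.99% of all 27025 genes of the table, and 12 held a match to the gamma-activated site (29.3%), against 9.55%. Of 13 matches to the latter, 2 overlapped a match to the former. The members were chosen by name as interferon genes, so a high share of matches goes with that choice. It is no result of these libraries. A match is a string of letters and not a shown site of binding.

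Stretches of 150 bases before the start are printed for 7 members, chosen after their values were seen to show how the matches are arranged in genes with lower, level and higher values. Capitals mark matches to GAAA NN GAAA or its reverse complement, overlapping ones run together.
Isg15, chr4:156200819-156200968, minus strand: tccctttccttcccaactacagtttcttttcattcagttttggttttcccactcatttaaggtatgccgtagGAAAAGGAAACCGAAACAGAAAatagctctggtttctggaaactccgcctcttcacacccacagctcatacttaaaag
Rsad2, chr12:26456453-26456602, minus strand: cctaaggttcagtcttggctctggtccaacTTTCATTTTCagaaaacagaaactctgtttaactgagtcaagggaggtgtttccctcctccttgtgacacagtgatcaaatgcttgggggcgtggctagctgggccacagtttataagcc
Gbp7, chr3:142530186-142530335, plus strand: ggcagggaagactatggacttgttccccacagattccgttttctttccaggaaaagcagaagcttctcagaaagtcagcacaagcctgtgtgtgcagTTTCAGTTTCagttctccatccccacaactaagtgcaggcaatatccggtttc
Igtp, chr11:58199406-58199555, plus strand: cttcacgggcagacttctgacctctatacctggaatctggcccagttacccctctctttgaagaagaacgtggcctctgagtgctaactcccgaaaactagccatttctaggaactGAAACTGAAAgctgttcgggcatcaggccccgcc
Oas1a, chr5:120907526-120907675, minus strand: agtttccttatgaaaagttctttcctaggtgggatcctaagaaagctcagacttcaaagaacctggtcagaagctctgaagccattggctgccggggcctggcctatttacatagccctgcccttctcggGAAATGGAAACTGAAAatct
Oas1g, chr5:120887614-120887763, minus strand: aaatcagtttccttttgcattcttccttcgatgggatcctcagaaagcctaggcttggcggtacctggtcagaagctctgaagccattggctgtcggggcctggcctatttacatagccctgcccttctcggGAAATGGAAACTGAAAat
Bst2, chr8:71537473-71537622, minus strand: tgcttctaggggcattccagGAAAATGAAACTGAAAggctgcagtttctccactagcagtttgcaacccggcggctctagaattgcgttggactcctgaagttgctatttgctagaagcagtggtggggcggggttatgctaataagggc

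Isg15 held 3 overlapping matches, beginning at -78, -72 and -66 from the start. The neighbours Oas1a and Oas1g carried the same overlapping pair just before their starts, yet Oas1a was nearly level (log2 ratio -0.11) and Oas1g lower (-0.56), with the shared reads named above. Bst2, one of the 6 members higher beyond counting error, held a pair as well. The 20 members with a match had a median log2 ratio of -0.28 with 18 below 0, and the 21 with a window and no match a median of -0.26 with 15 below 0. Members with and without these letters in this window had close medians, but the share below 0 was 90% with and 71.4% without a match. The group without a match also held all 4 receptor genes. A part of the element in these ratios was not tested. Among measured genes that are no members, 304 held a match and 173 of them (56.9%) had a log2 ratio below 0, with a median of -0.03, against 50.02% and a median of -0.0003 in the 8160 with a window and no match. Of these 304 genes 1 passed the 2-fold rule as lower and 0 as higher. Only the members were left out here, so the 304 can hold other interferon-stimulated genes.

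**Figure D5:**
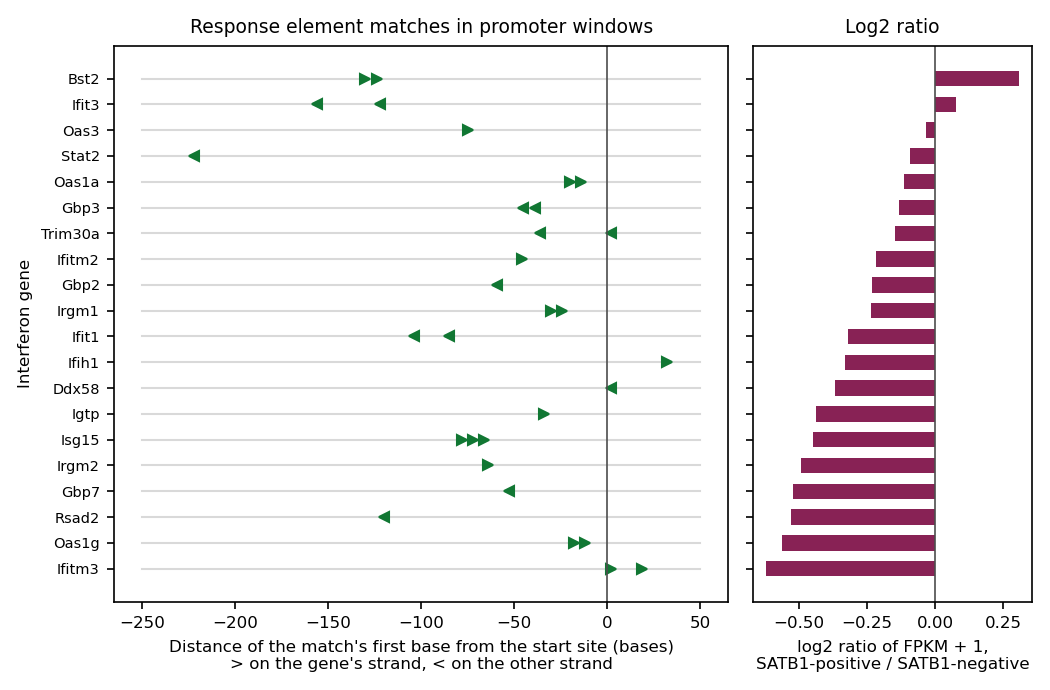
Left, distance in bases from the start site of each response element match in the 20 members that hold one, with arrowheads for the strand; right, the log2 ratio of the same genes, ordered by it. Of 31 matches 24 begin within 150 bases before the start and 5 begin after it, and 18 of the 20 genes have a ratio below 0.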

How the data were processed

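RNA sequencing of 1 library per group was used. The labels' protocols name the miRNeasy kit for total RNA and a stranded SMARTer kit (Clontech) for the libraries. The authors deposited FPKM, with 1 value for each gene symbol. TopHat2 2.0.13, Cufflinks 2.2.1, Bowtie2 2.2.3 and SAMtools 0.1.19 and the build mm10 appear in the submitters' processing notes. How these were set, which annotation was used and whether counting used strand was not found in these sources. Cufflinks divides fragments among similar and overlapping genes by a model, so values of near copies can shift between them. Without strand in counting, antisense partners cannot be told apart.

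Each file held 23235 rows, of which 25 had a symbol turned into a spreadsheet date and were left out (0.161% and 0.172% of the summed FPKM). Counts were not used here, so depth was worked out from the steps between low FPKM of genes with 1 exon and 1 transcript in GENCODE M21. At an offset of 205 bases, 57.8% of 225 and 56.1% of 264 values were whole within 0.05 fragments. A random depth gives 10%, but this depth was searched for. Fragments per gene used FPKM, depth and the shortest RefSeq-linked transcript. GENCODE held a single gene for 89.6% of symbols and for all 53 members. The calculation was tested on simulated data. Shared 50-base words were counted against all GENCODE M21 transcripts, and 8 members shared over 10%.

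The members, role groups, lists and markers were chosen with earlier results of these data known. Every member was given with both values. From each pathway list, the most abundant gene and the 2 genes at each end of the ratios were named, if they reached 5 FPKM in a library. A few genes that this rule selects are not reported here. No test was run, and no replicate could be left out. The pseudocount (0.1 or 5), the scaling (median ratio, sum or upper quartile), the filter and the threshold (1.5-fold) were varied. Python 3.11.15, pandas 2.3.3, SciPy 1.17.1 and NumPy 2.4.6 were used.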

Additional observations from a re-analysis of the deposited data

How the results depend on the processing

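No paired analysis was possible because each group has 1 library. The median log2 ratio of the members ran from -0.26 (pseudocount of 0.1) to -0.22 (pseudocount of 5) over all alternatives, and 41 of 53 members were below 0 under each pseudocount and scaling. None of the 53 ratios changed sign in 265 recomputed values, but these alternatives could not change one. A pseudocount added to both libraries leaves the sign as it is. The scaling factors given next all lie nearer 0 than any member's ratio, the nearest being Dhx58 at -0.015. The unchanged signs were thus fixed in advance. On the log2 scale, the scaling factors (SATB1-positive over SATB1-negative) were -0.0003 (median ratio), -0.0030 (sum) and 0.0054 (upper quartile). Scaling to TPM also lowers the weight of the pseudocount, so ratios of low genes lay further from 0, as for Mx2 at -0.65 in place of -0.54; the median of the members was then -0.26. With a threshold of 1.5-fold in place of 2-fold, 2 members passed as lower, Iigp1 and Ifitm3, and 1 as higher, Zbp1, where 2.27% and 2.98% of measured genes did. This count kept the pseudocount of 1 and the minimum of 5 FPKM. The plain folds of Mx2, Oas1g, Xaf1, Rsad2 and Parp12 were also past 1.5-fold as lower. Without the 8 members that share over 10% of their 50-base words, an alternative chosen after seeing the data, the median was -0.24 and 34 of 45 were below 0. Counting with the longest transcript, also chosen after seeing the data, put 36 members on the lower and 7 on the higher side of 1. Of 41 members with a promoter window, 17 held the response element in the 250 bases before the start alone, 15 held the longer form GAAA NN GAAAC, and 8 held the gamma-activated site before the start. Depth as estimated limits Xaf1, Mx1, Mx2, Oas1g, Ifit3 and Zbp1 most, with 79 to 200 fragments in each value. For Xaf1 and Zbp1 these numbers rest on the shortest transcript, of 651 and 770 bases. Their longest had 2597 and 1989 bases, which would give more fragments.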
